A study of Mus musculus with 6 samples.

Results

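The genes described here are 41 mouse genes that act in DNA replication and in the repair of DNA during S phase. They were taken by symbol from a list that runs from origin licensing factors to the E2F factors that control them. The arrays measured 40 of the 41, out of 18193 genes in all. Chaf1a, the large subunit of the chromatin assembly factor CAF-1, was named by no probe set and was not analysed here. For 32 of the 40 the array held more than 1 probe set, 92 probe sets in total, and each gene is represented by the probe set with the highest mean log2(signal + 1) over the 6 arrays.

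A cell copies its DNA once per cycle. Origins are licensed when ORC, CDC6 and CDT1 load the MCM helicase ring; CDC45 and the GINS complex then switch that ring on, polymerase alpha and primase lay down primers, and the replicative polymerases extend them on the sliding clamp PCNA. Deoxynucleotides come from ribonucleotide reductase, thymidylate synthase, thymidine kinase and dUTPase, and most of these genes are transcribed under the control of E2F factors at the entry to S phase. In the mouse uterus, estrogen drives division of the epithelium around ovulation, and progesterone brings that division to a stop before the embryo attaches.

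The study asked how the uterine epithelium of early pregnancy differs between wild-type females and females with 1 altered copy of Sox17, a transcription factor gene; the mutant allele is written Sox17GFP/+ in the study's design text. There were 3 groups of 2 arrays. The wild-type (WT) groups were taken on day 1, the day of the vaginal plug (arrays 302 and 303), and on day 4 (arrays 277 and 284), and the Sox17-heterozygous group on day 4 (arrays 253 and 281). There was no heterozygous group on day 1, so the effect of day could be measured in wild type only. The labels name no tissue-specific driver for the allele, so what it did in the epithelium and in the rest of the animal cannot be told apart. The epithelium was freed from uterine pieces with pancreatin and dispase, and the sources used here give no age, strain or pooling. The labels number the samples but do not say that they came from separate females, so a p-value measures the spread between these samples only.

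Sequence upstream of the genes is shown first, because binding of E2F factors there is the textbook route by which these genes are switched on together. The RefSeq promoter table (build GRCm38.p6) gave a window of 300 bases, 250 before and 50 after the start, for 36 of the 41 genes. Exo1, Gins1, Gins2, Mcm4 and Pole were not in the table used here. Of the 36 genes, 14 had at least 1 of the E2F-type forms TTTCGCGC, TTTGGCGC or TTTCCCGC on either strand, which is 38.9% of them, against 2.12% of 27025 genes in the table. TTTCGCGC and TTTGGCGC can overlap on opposite strands. The CCAAT form was present in 63.9% of the 36 and in 41.1% of all genes. Stretches are shown only from genes with a match wholly before the start. Within each role group the gene among these with the largest difference between genotypes is shown. Capitals mark the matched letters.
Uhrf1 (chr17:56304098-56304165, plus strand): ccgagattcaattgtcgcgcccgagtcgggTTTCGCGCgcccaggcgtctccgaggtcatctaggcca
Rfc3 (chr5:151651209-151651248, minus strand): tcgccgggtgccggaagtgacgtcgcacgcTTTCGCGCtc
Mcm5 (chr8:75109326-75109397, plus strand): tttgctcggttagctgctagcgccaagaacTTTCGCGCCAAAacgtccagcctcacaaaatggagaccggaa
Pola1 (chrX:93632256-93632323, minus strand): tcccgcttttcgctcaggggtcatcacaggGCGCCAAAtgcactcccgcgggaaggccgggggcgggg

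In Uhrf1 the match began 185 bases before the start, and in Rfc3 10 bases before it. Mcm5 carried TTTCGCGC and, on the opposite strand and sharing its last letters, TTTGGCGC. Pola1 carried TTTGGCGC on the opposite strand. A match is a description of letters and not a site. Between WT day 1 and day 4, 2 of the 14 genes with a match rose and none fell by the test given below. Of the 21 measured genes in the table without a match 5 rose and 1 fell. Of all genes on the arrays, 7.58% rose and 5.73% fell. The median log2 change of the day was 0.39 with a match, 0.75 without and 0.30 over all genes. Between the genotypes these medians were 0.34, 0.45 and -0.20.

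Values are linear signals scaled to one trimmed mean, 500, on each array; changes are differences of log2(signal + 1), folds are on that scale, and changes are given with their standard error (SE) from limma. A gene is said to rise or fall when its Benjamini-Hochberg adjusted p over all 18193 genes was under 0.05. The spread was estimated over all 3 groups together (3 residual degrees of freedom), and an exact permutation test of 2 arrays against 2 cannot go below p = 0.333. Sox17 itself read 7738 and 8671 on day 1, 34794 and 35060 in WT day 4, and 30189 and 28810 in the heterozygotes; the genotypes differed by -0.24 ± 0.19 (SE, n = 2 arrays a group; limma adjusted p = 0.586). The probe set therefore did not mark the genotype by level. WT array 277 stood apart among dim probe sets: its median signal was 138, where the rest had 66.2 to 78, and 27% of its signals were under 50, where the rest had 41.6% to 44.6%. All 11 epithelial markers, among them Epcam, Krt8 and Cdh1, had signals of at least 2063 on every array.

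The 40 genes were lowest as a list on day 1, higher in WT on day 4 and highest in the heterozygotes. Their median log2(signal + 1) was 7.01 and 7.03 on the day 1 arrays. It was 8.08 and 7.64 on WT arrays 277 and 284, and 8.39 and 8.24 on heterozygous arrays 253 and 281. The 3 groups did not overlap in this median, while over all genes the medians were 7.34 and 7.40, 7.89 and 7.24, and 7.47 and 7.32, with no such order. Both heterozygous arrays lay above the other 4 in 21 of the 40 genes, against 8.66% of all genes, and both day 1 arrays lay below the other 4 in 23, against 23.3%. Both WT day 4 arrays lay below the rest in Mcm7, Fen1, Rrm2, Ung, Blm and E2f8, 6 genes (8.91% of all), and above it in Tyms, Dnmt1 and Rad54l, 3 genes (18%). The day 1 arrays were both highest in Chaf1b alone (16.9%). In 15 genes the arrays kept the order day 1, WT day 4, heterozygous without overlap (4.01% of all genes). No gene of the list had both heterozygous arrays below the other 4, against 11.3% of all genes. The samples are tissue, so a smaller share of cells in S phase and less of each RNA per cell cannot be told apart.

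**Figure D1:**
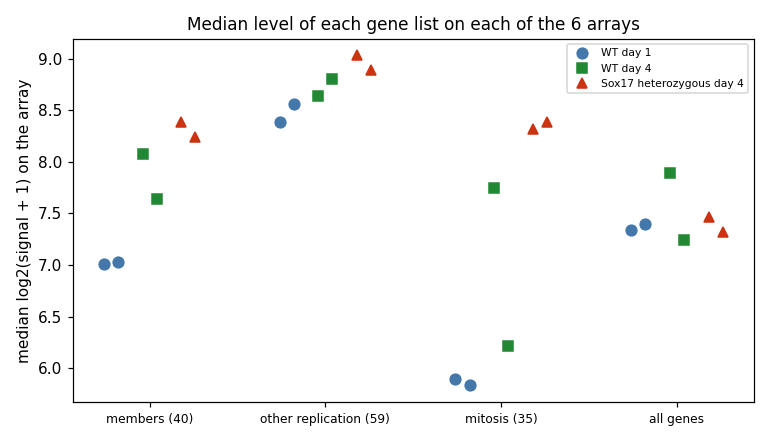
Median log2(signal + 1) of 4 gene lists (x axis: the 40 replication genes, 59 other replication genes, 35 mitosis genes and all 18193 genes) on each of the 6 arrays, 1 point an array, by group. The 40 genes lie near 7.0 on both day 1 arrays, at 7.64 and 8.08 in WT day 4 and at 8.24 and 8.39 in the heterozygotes.

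Between WT day 1 and WT day 4, 8 of the 40 genes rose, 1 fell and 31 did not pass the test. The share of all genes that rose was 7.58%, and 5.73% fell. Those that rose were Tyms, Prim1, Rad54l, Dut, Gins1, Pola1, Rfc5 and Mcm3, and E2f8 fell. The median log2 change of the 40 was 0.75, against 0.30 over all genes, with 30 above 0 and 10 below, where 62.9% of all genes were above and 37.1% below. In 24 genes both day 4 arrays lay above both day 1 arrays (35.4% of all genes) and in 7 below (21.3%). With limma's prior variance made to follow intensity, 15 rose (14% of all genes) and 1 fell, Fen1 (10.8%); the added genes were Orc1, Mcm2, Mcm4, Mcm6, Gins2, Pcna and Dnmt1, and E2f8 no longer passed. Fits without 1 array left a group with 1 array, so only the median is given for them. It was 0.51 without array 302 and 0.73 without array 303, against 0.26 and 0.28 over all genes. Without array 277 it was 0.49 and without array 284 0.80, against 0.05 and 0.53. Centred on their medians, the arrays left 2 genes called (7.74% of all genes), and the all-gene median moved from 0.30 to 5e-04.

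Between the genotypes on day 4 no gene of the 40 passed the default test, and none of the 18193 did (0%); the smallest adjusted p in the list was 0.151 (limma). At an unadjusted p under 0.05, 12 of the 40 were higher in the heterozygotes and 0 lower, against 4.56% and 8.66% of all genes. The median log2 change was 0.39 while that of all genes was -0.20, and 32 of the 40 were above 0, against 37.3% of all genes. In 24 genes both heterozygous arrays lay above both WT arrays (18% of all genes), and in 3 below (30.6%), namely Tyms, Dnmt1 and Rad54l; with centred arrays the difference in Dnmt1 became 0.34 and in Rad54l 0.02, while that in Tyms stayed below 0. With the intensity trend 5 genes rose, Rrm2, Uhrf1, Pola1, Fen1 and Rrm1, and none fell, against 1.93% and 1.59% of all genes. Without array 253 the median was 0.40 and without array 281 0.51, against -0.19 and -0.17 over all genes. Without array 277 it was 0.47 and without array 284 0.37, against -0.02 and -0.39. Calls were not read from these fits, which left a group with 1 array, so the 5 calls were not shown to hold without any 1 array. Over all alternatives the differences in these 5 genes stayed above 0. At the lowest they were 2.25, 1.66, 0.14, 0.49 and 0.13, in the order named. Centring left the count with the trend at 5 (1.26% of all genes), with Pole and Tk1 in place of Fen1 and Rrm1. It moved the median of the 40 to 0.84 and of all genes to 0.25.

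Heterozygous day 4 set against WT day 1 joins day and genotype and shares its arrays with both comparisons above. In it 14 of the 40 rose (5.07% of all genes) and none fell (4.48%), and the median was 1.25 against 0.01 over all genes. The change was above 0 in 35 (50.7% of all genes) and below in 5 (49.3%), and the arrays did not overlap in 30 that were higher (32.2%) and 1 that was lower, Chaf1b (30.1%). With the intensity trend 23 rose (11.7%) and Chaf1b fell (9.65%). Those that rose by the default test were Dut, Pole, Pola1, Prim1, Tyms, Rad54l, Gins1, Mcm3, Rfc5, Mcm4, Rrm2, Rfc4, Gins2 and Mcm5. The trend added Orc1, Cdt1, Mcm2, Mcm6, Pcna, Rrm1, Tk1, Uhrf1 and Dnmt1. Without array 302, 303, 253 or 281 the median was 1.21, 1.16, 1.11 or 1.34, in that order. The median over all genes was then from 0.001 to 0.04. Calls were not read from these fits, which left a group with 1 array.

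**Figure D2:**
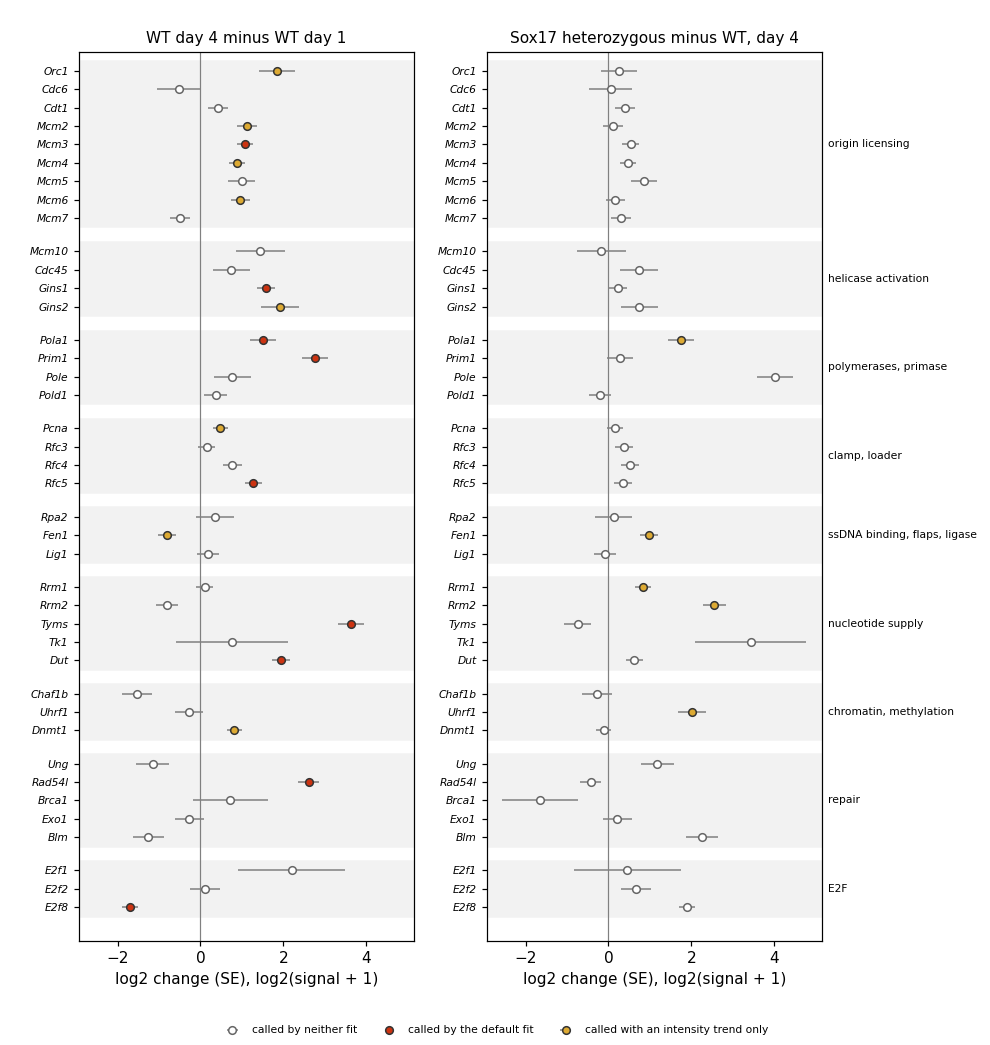
Log2 change (x axis, difference of log2(signal + 1); bars are 1 SE) of each of the 40 genes, by role, for WT day 4 minus day 1 (left) and for heterozygous minus WT on day 4 (right). Filled points passed a test. On the left 9 genes passed by default and 8 more with an intensity trend only, and on the right 5 passed, each with the trend only.

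Origin licensing was represented by 9 genes. Their day 4 values were higher in most cases, and the difference between genotypes was above 0 in all 9 but small. Mcm3, a subunit of the MCM helicase, read 204 and 185 on day 1, 409 and 412 in WT day 4, and 634 and 558 in the heterozygotes. On this probe set the 3 groups did not overlap. It rose by 1.08 ± 0.20 with the day (limma adjusted p = 0.0374), and the genotypes differed by 0.53 ± 0.20 (adjusted p = 0.372). Its other probe sets gave 0.33 to 1.51 for the day and 0.07 to 0.30 between genotypes. Of these only the probe set with 147 and 158 in WT day 4 and 183 and 193 in the heterozygotes kept the genotypes apart. Mcm4 followed the same order, with 458 and 510, 850 and 938, and 1247 and 1218. Mcm5 read 108 and 131, then 287 and 197, then 513 and 365. On the chosen probe sets it had the largest genotype difference of the group, 0.86 ± 0.32 (limma adjusted p = 0.374). Another Mcm5 probe set, with 67 and 37.8, then 123 and 99.2, then 161 and 107, gave 0.25, and the genotypes overlapped. A dim one, at 23.6 or lower on every array, gave -0.88. From day 1 to the heterozygotes Mcm4 rose by 1.35 ± 0.19 and Mcm5 by 1.86 ± 0.32 (limma adjusted p = 0.0284 and 0.0403).

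On their chosen probe sets Mcm2 and Mcm6, further subunits of the ring, were higher on day 4 and close between genotypes. Mcm2 read 257 and 309 on day 1, 692 and 547 in WT day 4, and 714 and 612 in the heterozygotes. Mcm6 read 604 and 585, then 1111 and 1209, then 1502 and 1130. Their day changes, 1.12 ± 0.24 and 0.96 ± 0.23, passed only with the intensity trend (limma adjusted p = 0.00482 and 0.00301). On another Mcm6 probe set, with 382 and 349, then 382 and 580, then 802 and 710, the genotypes differed by 0.68. A dim Mcm6 probe set, at 51.7 or lower on every array, gave -1.70. Mcm7, also of the ring, did not move with its partners: it read 1687 and 1835 on day 1, 1247 and 1239 in WT day 4, and 1800 and 1293 in the heterozygotes, a day change of -0.50 ± 0.24 (adjusted p = 0.261). Of its other 3 probe sets, 2 were below 0 for the day as well (-0.17 and -0.18), and 1 was at 0.05 ± 0.25.

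Orc1, the origin recognition subunit that varies most over the cycle, read 58.9 and 60.4 on day 1, 319 and 149 in WT day 4, and 224 and 306 in the heterozygotes. All 4 day 4 arrays lay above both day 1 arrays, and the genotypes overlapped. Its day change of 1.86 ± 0.44 passed only with the intensity trend (limma adjusted p = 0.0171; 0.0661 by default). Its other probe set, with 148 and 86.7 on day 1 and 180 and 121 in WT day 4, gave 0.38. Cdc6, the loader of the ring, read 182 and 107, then 139 and 67.6, then 128 and 79.7, and all 3 groups overlapped. Cdt1, its partner, read 313 and 394, then 445 and 498, then 680 and 567, in separate groups, with a day change of 0.42 ± 0.24 and a genotype difference of 0.40 ± 0.24 (limma adjusted p = 0.314 and 0.499).

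Helicase activation was represented by 4 genes, all above 0 for the day. Gins1, a subunit of GINS, read 60.7 and 55.8 on day 1, 157 and 199 in WT day 4, and 201 and 214 in the heterozygotes. It rose by 1.59 ± 0.22 with the day (limma adjusted p = 0.0205), and the genotypes lay next to each other, 0.23 ± 0.22 apart (adjusted p = 0.656). Gins2, of the same complex, read 47.8 and 27.9, then 104 and 190, then 276 and 202. It rose by 2.66 ± 0.45 from day 1 to the heterozygotes (limma adjusted p = 0.0401), and its day change in WT, 1.91 ± 0.45, passed only with the intensity trend (adjusted p = 0.0333). Cdc45, which binds the ring together with GINS, read 44.6 and 59.9, then 119 and 64.2, then 191 and 112, and the 2 day 4 groups overlapped. Mcm10, which helps to activate the ring, was highest on WT array 277: 77.4 and 60.5 on day 1, 332 and 106 in WT day 4, and 176 and 159 in the heterozygotes.

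The polymerase genes split between the comparisons. Prim1, the catalytic subunit of primase, rose with the day, while Pole, of the leading-strand polymerase, had a signal above 10.4 on the heterozygous arrays only. Prim1 read 117 and 180 on day 1, 858 and 1146 in WT day 4, and 1171 and 1225 in the heterozygotes. It rose by 2.76 ± 0.31 with the day, 6.78-fold (limma adjusted p = 0.0142), and the genotypes differed by 0.27 ± 0.31 (adjusted p = 0.704). Its other probe set read 38.7 and 69.9, then 346 and 514, then 550 and 562. Both probe sets thus put day 1 lowest and left a small gap between genotypes.

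Pola1, the catalytic subunit of the primer-making polymerase alpha, stepped up in both comparisons. It read 62.6 and 87.9 on day 1, 256 and 180 in WT day 4, and 808 and 655 in the heterozygotes, with no overlap between groups. The day rise was 1.52 ± 0.31 (limma adjusted p = 0.0496). The genotype difference was 1.76 ± 0.31, with an adjusted p of 0.198 by default and 0.0262 with the intensity trend. Its other, dim probe set, at 46.8 or lower on every array, did not separate the genotypes.

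Pole read 3.22 and 5.41 on day 1, 10.4 and 5.94 in WT day 4, and 187 and 110 in the heterozygotes, on its single probe set. The 4 WT arrays were at the low end of the scale, where a ratio of signals is poorly set. The genotype difference was 4.02 ± 0.44 (limma adjusted p = 0.151 by default and 0.0597 with the trend), the largest of the 40 at a pseudocount of 1; at 32 it was 2.13, below the 2.25 of Rrm2 and the 2.18 of Tk1. The rise from day 1 to the heterozygotes was 4.79 ± 0.44 (adjusted p = 0.0140), or 2.28 at a pseudocount of 32. Pold1, the catalytic subunit of polymerase delta, had the smallest changes of the 4 genes: 193 and 223, then 323 and 221, then 243 and 219. Its other probe set went the other way for the day, with 240 and 184 on day 1, 84.8 and 169 in WT day 4, and 252 and 260 in the heterozygotes.

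The clamp and its loader kept one order of groups, with changes that differed in size. Pcna, the clamp, read 4442 and 4501 on day 1, 6267 and 6235 in WT day 4, and 7277 and 6693 in the heterozygotes. The groups were separate, and the changes were 0.48 ± 0.18 for the day and 0.16 ± 0.18 between genotypes (limma adjusted p = 0.174 and 0.710 by default; the first passed with the trend, 0.0271). Rfc5, a subunit of the loader, read 216 and 258, then 577 and 570, then 791 and 677, and rose by 1.28 ± 0.21 with the day (limma adjusted p = 0.0309). Rfc4, its neighbour in the complex, read 145 and 129, then 209 and 263, then 344 and 331. Its largest step was from day 1 to the heterozygotes, 1.29 ± 0.22 (limma adjusted p = 0.0395). Rfc3 read 313 and 293, then 344 and 330, then 483 and 396, and passed in no comparison; its day change of 0.15 became -0.15 with centred arrays. In all 4 genes both heterozygous arrays were above both WT day 4 arrays and these above both day 1 arrays.

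Behind the fork the picture differed. Fen1, the nuclease that trims the flaps of lagging-strand fragments, read 718 and 598 on day 1, 347 and 408 in WT day 4, and 706 and 770 in the heterozygotes. WT day 4 was thus the low group. The day change of -0.80 ± 0.22 and the genotype difference of 0.97 ± 0.22 passed only with the intensity trend (limma adjusted p = 0.0180 and 0.0339). Its other probe set read 256 and 265, then 424 and 407, then 549 and 315; there the day sign was opposite, and the heterozygous arrays lay on either side of WT. Lig1, the ligase that seals the fragments, read 520 and 437, then 645 and 453, then 507 and 508, and all groups overlapped. Rpa2, of the single-strand binding protein RPA, was as variable within groups as between them: 140 and 189, then 153 and 280, then 295 and 173.

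Genes of nucleotide supply fell into patterns that overlapped in Dut. Tyms and Dut, which make and protect the thymidylate pool, rose with the day. Rrm1, Rrm2, Tk1 and also Dut were highest in the heterozygotes. Tyms, thymidylate synthase, read 17.7 and 10.4 on day 1, 159 and 203 in WT day 4, and 103 and 112 in the heterozygotes. It rose with the day by 3.63 ± 0.33 (limma adjusted p = 0.00954). The day 1 signals were low, and with a pseudocount of 32 the rise was 2.21. Tyms was lower in both heterozygous arrays than in both WT day 4 arrays, by -0.74 ± 0.33 (adjusted p = 0.420). Another Tyms probe set gave the same order, with 10.5 and 22, then 195 and 169, then 60.8 and 88.3.

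Dut, dUTPase, read 96.8 and 118 on day 1, 437 and 389 in WT day 4, and 610 and 668 in the heterozygotes, and rose by 1.94 ± 0.21 with the day (limma adjusted p = 0.0139). Its genotype difference was 0.63 ± 0.21 (adjusted p = 0.352). Rrm2, the small subunit of ribonucleotide reductase that is made in S phase, read 184 and 180, then 116 and 92.9, then 732 and 518. The heterozygotes were 5.89-fold above WT day 4, a difference of 2.56 ± 0.27 (limma adjusted p = 0.151 by default and 0.00374 with the trend), and WT day 4 was below day 1 on both arrays. Both other Rrm2 probe sets put the heterozygotes highest too, at 263 and 189 against 29.6 and 56.8, and at 370 and 311 against 101 and 88.3.

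Rrm1, the large subunit of the reductase, read 512 and 476 on day 1, 543 and 517 in WT day 4, and 1023 and 874 in the heterozygotes. The WT groups lay close together, and the genotype difference of 0.83 ± 0.20 passed only with the trend (limma adjusted p = 0.0462). The other bright Rrm1 probe set read 704 and 531, then 581 and 347, then 793 and 783. Tk1, thymidine kinase, read 4.39 and 31.7, then 61.8 and 7.04, then 262 and 223. Within each WT group its arrays differed by several fold, and its genotype difference of 3.43 ± 1.34 passed neither test (limma adjusted p = 0.389 and 0.163).

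**Figure D3:**
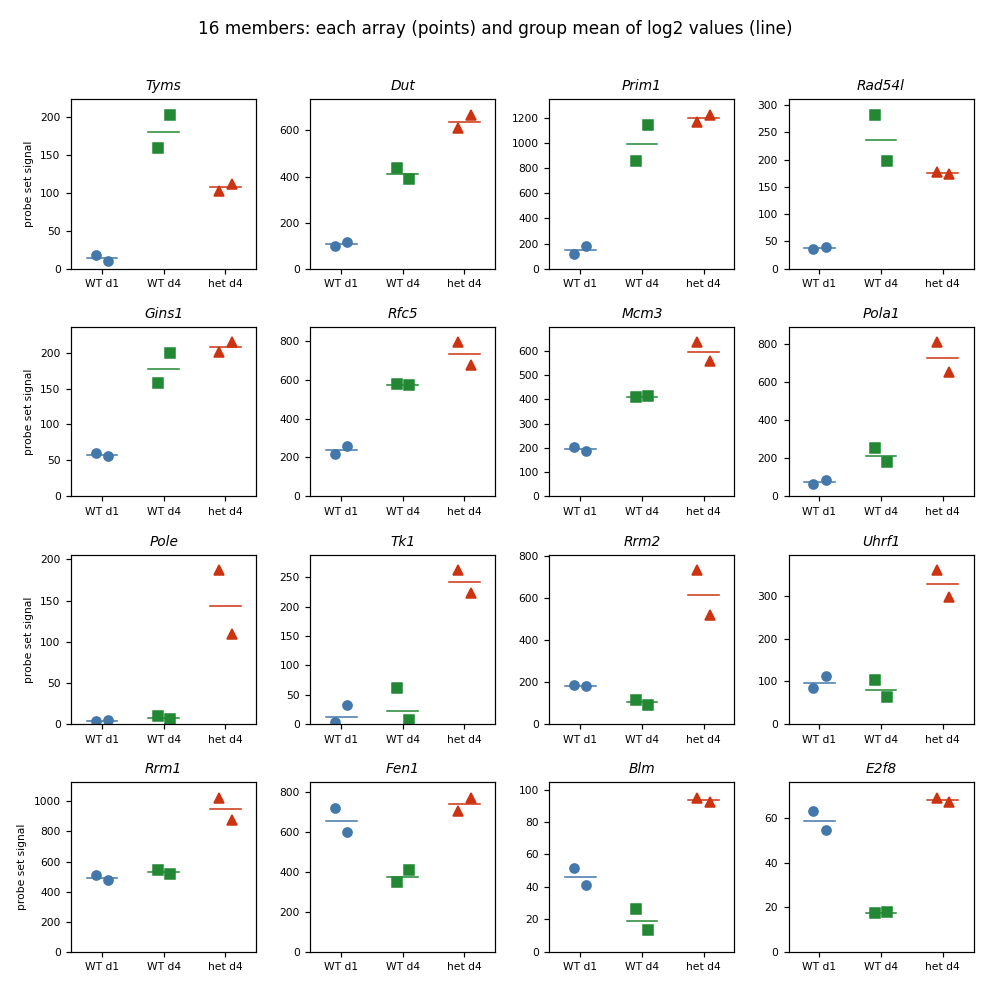
Probe set signal (y axis, linear, from 0 in each panel) of 16 genes on each array, by group (x axis: WT day 1, WT day 4, heterozygous day 4); points are arrays and lines are group means of log2 values. The upper 8 panels are the genes that rose with the day, Tyms and Rad54l being highest in WT day 4. The lower 8 did not rise with the day, and their heterozygous arrays stood above both WT day 4 arrays. Rrm2, for example, read 732 and 518 against 116 and 92.9. In the upper panels other than Tyms and Rad54l the heterozygous arrays also stood above both WT day 4 arrays.

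Among the chromatin genes Uhrf1, which brings the maintenance methyltransferase to new DNA, read 84.9 and 112 on day 1, 103 and 62.6 in WT day 4, and 361 and 298 in the heterozygotes. Both WT groups overlapped and the heterozygotes stood 4.05-fold above WT day 4, by 2.02 ± 0.34 (limma adjusted p = 0.190 by default and 0.0482 with the trend). Its other probe set read 5 and 20.1, then 15.6 and 3.98, then 102 and 91.1. Dnmt1, the methyltransferase itself, did not share this pattern, with 658 and 692, then 1168 and 1204, then 1111 and 1087. Its day change of 0.81 ± 0.18 passed only with the trend (limma adjusted p = 0.00366). Chaf1b, the middle subunit of CAF-1, went the other way: 239 and 237 on day 1, 97.5 and 68.4 in WT day 4, and 89.5 and 51 in the heterozygotes, a day change of -1.53 ± 0.37 (adjusted p = 0.0683). Its dimmer probe set, with 46.4 and 40.8 on day 1 and 144 and 55.8 in WT day 4, had the opposite sign.

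The repair genes had no common direction. Rad54l, which acts in strand exchange in homologous recombination, read 35.9 and 39.9 on day 1, 282 and 198 in WT day 4, and 177 and 173 in the heterozygotes. It rose with the day by 2.61 ± 0.25 (limma adjusted p = 0.0110), or by 1.94 with a pseudocount of 32, and was lower in both heterozygous arrays than in both WT day 4 arrays, by -0.43 ± 0.25 (adjusted p = 0.499). Blm, a helicase that resolves recombination intermediates, read 51.7 and 41.3, then 26.3 and 13.3, then 94.9 and 92.1, so that WT day 4 was the low group and the heterozygotes the high one. Its genotype difference of 2.26 ± 0.38 passed neither test (limma adjusted p = 0.190 and 0.184) and was 1.29 with a pseudocount of 32. Ung, which removes uracil from DNA, was also lowest in WT day 4, with 277 and 230, then 86.5 and 147, then 325 and 203, but its heterozygous arrays overlapped day 1.

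Brca1, of recombination repair, could not be settled by its probe sets. The chosen one read 68.4 and 56.7 on day 1, 140 and 76.3 in WT day 4, and 78.6 and 13.1 in the heterozygotes, a genotype difference of -1.64 ± 0.91 (limma adjusted p = 0.482). Another read 12.3 and 23.7, then 115 and 28.2, then 191 and 120, and a dim one 4.15 and 3.49, then 9.59 and 4.14, then 44.1 and 41; both put the heterozygotes highest. Exo1, a nuclease of mismatch repair and resection, stayed between 36.8 and 66 on every array of its chosen probe set, and the groups overlapped. Another Exo1 probe set read 37.5 and 18.8, then 75.6 and 40.4, then 96.1 and 47.6, a day change of 1.03 ± 0.58.

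The E2F genes were dim. E2f8, a repressor that is itself an E2F target, read 63.3 and 54.4 on day 1, 17.2 and 17.8 in WT day 4, and 69 and 67 in the heterozygotes. It fell by 1.69 with the day (SE 0.19; limma adjusted p = 0.0152), and lost that call with the trend (adjusted p = 0.170). The heterozygotes lay above WT day 4 by 1.90 ± 0.19 (limma adjusted p = 0.151), at signals close to those of day 1. With a pseudocount of 32 these values were -0.87 and 1.01. E2f2, an activator, read 102 and 69.5, then 113 and 72.4, then 167 and 126. E2f1, the activator most often named with S-phase entry, read 25.6 and 2.65, then 107 and 18.2, then 60.2 and 62.4. Its WT arrays differed so much within each day that no order of the groups can be read.

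**Figure D4:**
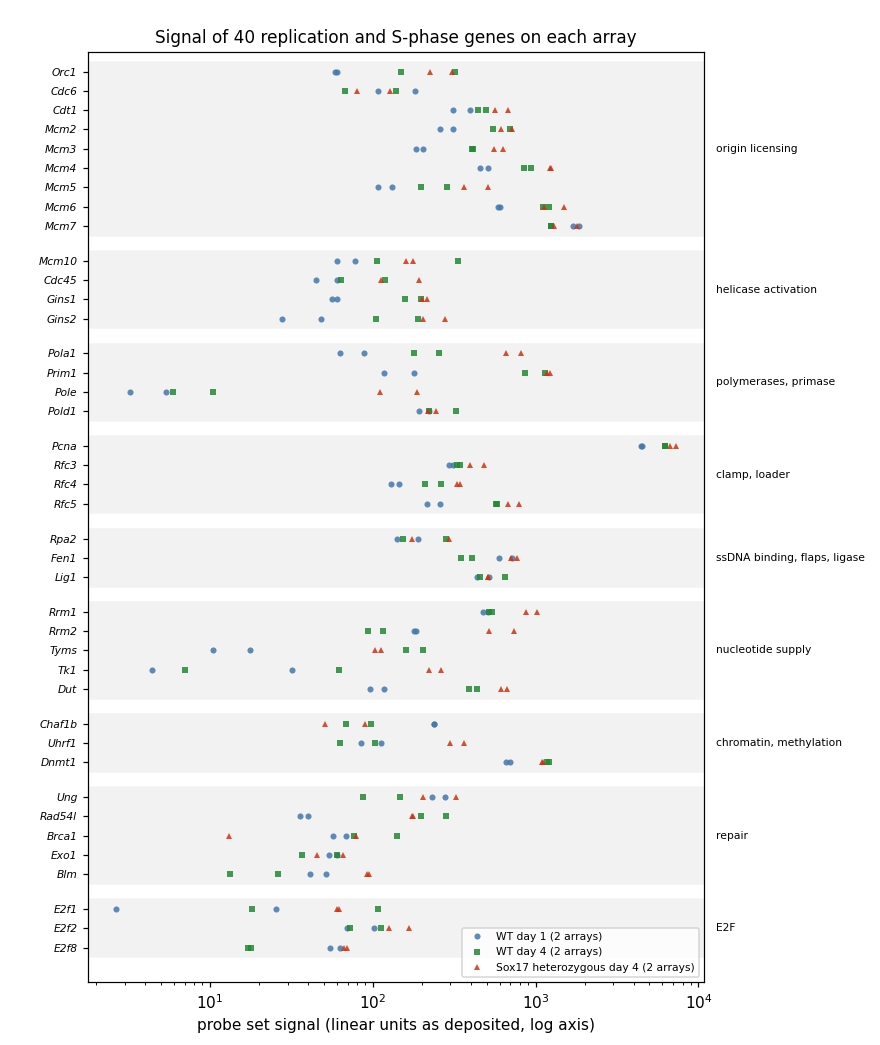
Signal (log axis) of each of the 40 genes on each of the 6 arrays, ordered by role, with a point for each array in the colour of its group. Levels compare within a gene and not between genes. In Rrm2, Tk1, Pole and Uhrf1 the heterozygous points stand clear of the 4 WT points, and in Tyms, Prim1, Dut and Rad54l the day 1 points stand clear below.

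The WT day 4 arrays differed from each other more than the arrays of the other groups. Over the 40 genes the median absolute difference between arrays 277 and 284 was 0.51 log2, against 0.26 between the day 1 arrays and 0.23 between the heterozygous arrays. Of the 40, 26 were higher on array 277 and 14 on array 284. Orc1, Cdc6, Mcm10, Tk1 and E2f1 were at least 2-fold higher on array 277, and none was on array 284, against 30.9% and 4.45% of all genes. The genes were thus less tilted towards array 277 than the array as a whole: their median difference was 0.24, that of all genes 0.31. The genes with the widest gaps were dim ones, Tk1 by 2.97 and E2f1 by 2.49, while Mcm3, Mcm7, Pcna and Rfc5 differed by 0.02 or less. Set against array 284 alone, the heterozygotes were higher in 34 of the 40, and against array 277 alone in 27. The heterozygous arrays tilted as well: 31 of the 40 were higher on array 253 than on array 281, by a median of 0.22, where all genes gave 0.02.

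The other probe sets of the 40 genes gave a count of how far the choice of probe set mattered. Of 52 further probe sets, 40 had the same sign as the chosen one for the day and 33 for the genotype. Among the 30 whose signal reached 100 on some array, these counts were 24 and 23. The rest stayed under 100 on every array.

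**Figure D5:**
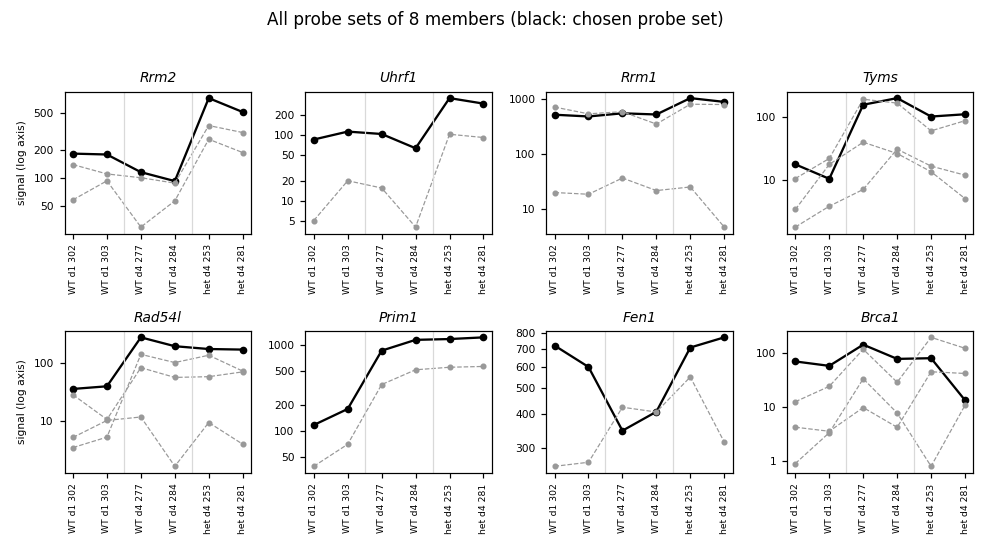
Signal (y axis, log) of every probe set of 8 genes on the 6 arrays (x axis), the chosen one in black and the others in grey. Rrm2, Uhrf1, Tyms and Prim1 keep one order of groups in their brighter probe sets; Fen1 and Brca1 do not.

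Other genes of the replication machinery, 59 of 62 listed that were measured, moved less. With the day 3 rose, Orc6 of the origin complex, Rpa1 of RPA and Msh6 of mismatch repair, and Cdc25a, a phosphatase that drives S-phase entry, fell, against 7.58% and 5.73% of all genes; the list's median was 0.45. The share of the 59 that rose was thus not above that of all genes. Between genotypes none passed by default and the median was 0.13. Cdc25a read 885 and 846 on day 1, 479 and 409 in WT day 4, and 829 and 790 in the heterozygotes, and its difference of 0.87 ± 0.20 passed with the trend (limma adjusted p = 0.0329), alone of the 59. Orc6 read 367 and 339, then 1030 and 973, then 889 and 869, and Rpa1 529 and 855, then 2993 and 2320, then 2552 and 2203. From day 1 to the heterozygotes Orc6, Tipin, Orc2 and Rpa1 rose (5.07% of all genes), and none fell (4.48%).

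Genes of mitosis, which follow S phase, are given beside the 40 for the same arrays. Of 35 measured, 8 rose (7.58% of all genes) and 2 fell (5.73%) with the day, with a median of 1.20. Between genotypes none passed by default, 33 of 35 were above 0 (37.3% of all genes) and the median was 1.44; 7 rose with the trend (1.93%). Mki67, the usual marker of cycling cells, read 48.8 and 46.4 on day 1, 102 and 16.8 in WT day 4, and 490 and 504 in the heterozygotes, a genotype difference of 3.54 ± 0.87 (limma adjusted p = 0.259 by default and 0.0318 with the trend). Top2a, the topoisomerase that frees sister chromatids, read 103 and 115, then 816 and 439, then 1222 and 1412. Anln, a scaffold of the cleavage furrow, read 105 and 88.2, then 646 and 444, then 1559 and 1565. Mad2l1, of the spindle checkpoint, read 468 and 608, then 240 and 261, then 680 and 685. These genes thus also differed in where WT day 4 lay. Bub1, of the same checkpoint, read 17.2 and 23.6, then 2.67 and 2.79, then 192 and 194. In Mki67 and Bub1, as in Rrm2 and Uhrf1, both heterozygous arrays lay above all 4 WT arrays and WT day 4 did not lie above day 1, and Top2a and Anln had the order of Pola1.

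Markers of other cells also differed between the groups, and their part in these results was not tested. The summed signal of 10 stromal genes was 3612 and 9096 on day 1. It was 1809 and 2841 in WT day 4, and 516 and 907 in the heterozygotes. All 10 were lower in the heterozygotes than in WT day 4 (62.7% of all genes), 7 of them at least 2-fold (3723 of 18193 genes). None of the 10 passed between genotypes by default. With the intensity trend Col3a1 fell (limma adjusted p = 0.0280), where 1.59% of all genes did. Among them Pdgfra and Pdgfrb did not exceed 32.2 on any array. The 7 smooth muscle genes summed to 903 and 895, 418 and 311, and 193 and 177. Both of these sums were highest on day 1 and lowest in the heterozygotes, the reverse of the 40 genes. The 6 macrophage genes summed to 6844 and 6357, 2778 and 1667, and 1537 and 1413, but Cd68 made up most of the day 1 sums. Without Cd68, a choice made after its values were seen, the other 5 summed to 442 and 610, 2554 and 1508, and 1229 and 1246, lowest on day 1; with the day 2 of the 6 rose, among them Lyz2, and Cd68 fell.

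Endothelial, lymphocyte, neutrophil and erythrocyte genes were dim, and their sums were highest on WT array 277. The 5 endothelial genes summed to 150 and 188 on day 1, 588 and 217 in WT day 4, and 133 and 149 in the heterozygotes. The 6 lymphocyte genes summed to 148 and 235, 432 and 236, and 120 and 63, the 3 neutrophil genes to 158 and 90, 219 and 67, and 53 and 43, and the 2 erythrocyte genes to 16 and 15, 192 and 55, and 24 and 10. Single genes did not all follow the sums: Cd3e gave 267 of the 432 for lymphocytes on array 277, and S100a9, a neutrophil gene, was highest on day 1. Ovgp1, a glycoprotein gene best known from the oviduct, followed the order of the 40 genes, with 165 and 288, then 5497 and 7309, then 20932 and 10977. Foxj1, which marks the ciliated cells of the oviduct, was at 45.4 or lower on every array. No listed marker was at exactly 0, and whether any of these cells contributed to the signals of the 40 genes was not tested.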

How the data were processed

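Uterine epithelium RNA was hybridised to 6 Affymetrix 3' expression arrays. The authors deposited 1 linear intensity per probe set and array, and the deposited values have a trimmed mean of 500 on every array (2% trimmed at each end). Per the submitters' processing notes, Affymetrix Expression Console, Transcriptome Analysis Console and RMA were used. RMA values are usually log2 and quantile normalized, and the deposited values are neither, and no source used here says which step made them. Of 45101 probe sets, 34945 carried 1 gene symbol, 932 several, 9160 none and 64 were controls; those with 1 symbol gave 18193 genes. No genome build is named for the arrays.

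From these values log2(signal + 1) was taken, without further normalization or filtering, and limma 3.58.1 in R 4.3.3 (lmFit, eBayes) was fitted over all genes with a coefficient per group. P-values were Benjamini-Hochberg adjusted over all genes, with 0.05 as the threshold. The fit was tested on simulated data, with noise drawn from the intensity trend itself. There the default fit found none of the planted changes between genotypes, and the intensity trend found most of the large ones. This setting favoured the trend fit in advance, so it does not rank the fits on the real arrays. An absence of default calls still does not show that the genotypes were equal. Alternatives changed scaling, pseudocount, filter, variance prior, arrays, probe sets and threshold. Every gene past the threshold is given on every array, with the largest and smallest change of each role, and other lists by some of the 4 genes of smallest p in a contrast, with Mki67 and Top2a as division markers. The genes, lists and tests were chosen with earlier results of these data known. The number of arrays, 2 a group, limits the precision.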

Additional observations from a re-analysis of the deposited data

How the results depend on the processing

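No median and no called gene changed direction under any alternative; among genes that were not called, the sign changed in 29 pairs of gene and setting for the day, 52 between genotypes and 21 for the joint comparison. For the day in wild type, 9 of the 40 genes were called (13.3% of all genes). The count was 2, both higher, with centred arrays (7.74%), and 16 with a pseudocount of 32 (18.8%). It was 15 of 22 genes tested when only the brighter genes were kept (45.1% of the brighter genes), and 16 with an intensity trend (24.8%). With only the 4 arrays compared it was 1 (3.39%), and with all probe sets of a gene averaged 5 (9.95%). At an adjusted p under 0.10 it was 18 (21.5%). Calls were not read from fits without 1 array, which left a group with 1 array, so no call was shown to hold in them. The median of 0.75 became 0.41 with quantile normalization, 0.45 with centring and 0.50 with a pseudocount of 32, and 0.49 to 0.80 without 1 array. Between genotypes, 0 were called by default (0% of all genes). Among the brighter genes 4 of 22 passed (5.76% of the brighter genes), and with the trend 5 (3.52% of all genes). The median of 0.39 became 0.84 with centring and 0.37 to 0.51 without 1 array. For heterozygous day 4 against WT day 1, 14 were called (9.55% of all genes). This count became 8 with centring (6.05%), 24 with the trend (21.3%) and 5 with the mean of probe sets (6.97%). The median of 1.25 became 1.03 among brighter genes, 1.04 with the mean of probe sets and 1.11 to 1.34 without 1 array. With the trend, chosen for these repeats after the data were seen, the day's 16 became 4 with centring and 10 to 17 without 1 array. The genotype's 5 became 0 to 3 without 1 array. The 24 of the joint comparison became 15 with centring and 7 to 25 without 1 array. The brighter-gene setting tests fewer genes and the 4-array setting uses fewer arrays; the cause of the other shifts was not tested. No paired analysis was possible because the sample numbers differ between the groups. Signals near the low end of the scale limit what can be said of Pole, Tk1, Tyms, Blm, E2f1 and E2f8.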
